A study of Mus musculus with 18 samples.

Results

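In lung endothelial cells (ECs), 385 chromatin regions carried a kept ATAC-seq peak in most bleomycin-injured samples of both ages and in few uninjured ones. They were 1.38% of the 27849 regions with a kept peak in at least 2 of 18 samples. To compare lists of unequal length, only the peaks with the highest deposited -log10 p on chromosomes 1 to 19, X and Y were kept from each list, as many as the shortest list (Aged Bleo 4) held, and kept peaks of different samples that shared 1 bp or more were joined into a region. A region was taken when it held a kept peak in at least 3 of 4 Young Bleo and at least 3 of 5 Aged Bleo samples, and in at most 1 of 5 Young Sham and at most 2 of 4 Aged Sham samples. These peak counts chose the regions, so the difference between bleomycin and sham in them is a description and was not tested. Where the regions held a kept peak, it mostly ranked low among the kept peaks of its list. By -log10 p, the median percentile of these peaks was 15.2 to 24.3 in Young Bleo and 13.2 to 28.5 in Aged Bleo samples. A region without a kept peak could still hold a weaker peak lower in the list, and "opened" below means a gain of rank among the peaks of a library. In a pool of cells, a region that opens further in every cell and one that opens in more of the cells cannot be told apart.

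Each list came from the ECs of 1 mouse. The mice were FVB animals of both sexes with a Col1α1-GFP transgene, which marks fibroblasts, and sham mice received PBS into the trachea while injured mice received bleomycin at 1 U/kg. Young Sham (n = 5) and Young Bleo (n = 4) mice were 2 months old, Aged Sham (n = 4) and Aged Bleo (n = 5) mice were 18 months old, and lungs were collected 30 days after treatment. ECs were sorted as CD31+ cells that were negative for CD45, CD326 (EpCAM) and GFP, which leaves capillary, arterial, venous and lymphatic ECs in 1 pool, and Omni-ATAC-seq, in which the transposase Tn5 cuts accessible DNA, was run on them.

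Most accessible DNA that differs between states of one cell type lies in enhancers, stretches away from gene starts where transcription factors bind and act on a promoter that may be far off. In ECs, ETS factors such as ERG bind a GGAA core and SOX factors such as SOX17 and SOX18 bind an ATTGT core, and both families maintain vascular identity. AP-1, made of FOS and JUN proteins, is switched on by stress, growth factors and matrix stiffness and is a common occupant of enhancers that open after injury.

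The sequences below show 200 bp around the strongest summit of 9 of these regions, printed because they hold a motif match, on the plus strand of mm10 (GRCm38), with the gene of the nearest transcription start site (TSS) as the name. Capitals mark matches, on either strand, to the AP-1 letters TGANTCA, the ERG core CAGGAAG and the SOX letters CCATTGT. N stands for any base, so the AP-1 match at Cav1 reads TGATTCA, while those at Gm35554, Cavin1 and Mir21a read TGACTCA. The Smarca5 region had a kept peak in every bleomycin and no sham sample, and the Gm12022, Bmp2, Gm35554 and Slc22a16 regions were among the strongest. The Chst1 region lies nearest to a marker gene of aerocytes, the capillary ECs of gas exchange. The Cavin1, Cav1 and Mir21a regions were chosen after their values were seen.
Smarca5 (chr8:80753384-80753583): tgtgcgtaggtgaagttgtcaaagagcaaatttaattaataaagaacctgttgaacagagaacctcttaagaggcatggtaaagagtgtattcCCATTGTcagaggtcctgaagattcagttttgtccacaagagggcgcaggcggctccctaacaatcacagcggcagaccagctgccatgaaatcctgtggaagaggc
Gm12022 (chr11:18296307-18296506): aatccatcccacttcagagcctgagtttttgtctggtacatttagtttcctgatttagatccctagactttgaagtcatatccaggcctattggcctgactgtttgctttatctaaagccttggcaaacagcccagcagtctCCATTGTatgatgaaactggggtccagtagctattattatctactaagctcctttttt
Bmp2 (chr2:133351417-133351616): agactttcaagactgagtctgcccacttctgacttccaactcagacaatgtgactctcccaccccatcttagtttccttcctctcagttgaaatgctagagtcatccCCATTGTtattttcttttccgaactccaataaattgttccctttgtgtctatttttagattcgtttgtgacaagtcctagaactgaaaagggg
Gm35554 (chr19:27351729-27351928): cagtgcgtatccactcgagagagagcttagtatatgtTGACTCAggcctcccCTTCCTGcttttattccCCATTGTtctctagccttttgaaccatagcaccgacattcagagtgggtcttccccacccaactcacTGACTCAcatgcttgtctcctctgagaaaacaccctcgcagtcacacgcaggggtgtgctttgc
Slc22a16 (chr10:40492002-40492201): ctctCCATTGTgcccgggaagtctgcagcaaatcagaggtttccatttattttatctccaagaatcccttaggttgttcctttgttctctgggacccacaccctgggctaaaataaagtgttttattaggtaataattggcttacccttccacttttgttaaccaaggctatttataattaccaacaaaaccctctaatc
Cavin1 (chr11:100979961-100980160): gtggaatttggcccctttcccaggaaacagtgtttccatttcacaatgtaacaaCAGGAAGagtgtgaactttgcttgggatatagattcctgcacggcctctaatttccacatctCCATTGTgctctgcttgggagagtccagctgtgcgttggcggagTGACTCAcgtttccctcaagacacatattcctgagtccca
Chst1 (chr2:92750817-92751016): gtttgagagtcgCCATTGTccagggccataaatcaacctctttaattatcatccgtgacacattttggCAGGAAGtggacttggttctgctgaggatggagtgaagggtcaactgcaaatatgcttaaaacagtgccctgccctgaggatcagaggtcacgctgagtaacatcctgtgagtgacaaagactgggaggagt
Cav1 (chr6:17353945-17354144): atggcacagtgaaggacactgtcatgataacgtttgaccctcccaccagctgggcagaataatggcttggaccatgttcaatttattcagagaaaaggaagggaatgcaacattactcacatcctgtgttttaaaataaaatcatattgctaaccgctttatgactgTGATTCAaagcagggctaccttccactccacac
Mir21a (chr11:86577308-86577507): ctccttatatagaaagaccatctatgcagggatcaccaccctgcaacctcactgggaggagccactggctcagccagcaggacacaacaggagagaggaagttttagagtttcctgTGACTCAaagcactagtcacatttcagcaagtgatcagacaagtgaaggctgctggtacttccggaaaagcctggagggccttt
The Gm35554 sequence held 2 AP-1 matches with an ERG and a SOX match between them, and the Cavin1 sequence held 1 match of each kind. The Smarca5, Gm12022, Bmp2 and Slc22a16 sequences held a SOX match alone, the Cav1 and Mir21a sequences an AP-1 match alone, and the Chst1 sequence held a SOX and an ERG match. A match describes the letters and does not show that a factor was bound. The regions described below at Itga9, Col22a1 and Klf10, and the stronger one at Wnt5a, held no match to any of the 3 motifs and are not shown.

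Some facts of the libraries bear on every count. The lists held up to 40883 nuclear peaks, the kept peaks reached down to a -log10 p of 4.814 in Aged Bleo 4 and of 23.3 in Aged Bleo 2, and the median peak rested on 25 to 33 fragments at its summit. After equal numbers were kept, every sample had a peak in 71.4% to 74.8% of all regions. All 12 endothelial marker genes had a promoter peak in at least 1 sample and 8 to 12 had one in each, while none of 10 leukocyte markers had one in any sample. Of 8 epithelial markers only the promoter of Foxj1 had a peak and of 7 fibroblast markers only that of Pdgfra, in every sample, with 1 to 2 of 6 mural, 1 to 3 of 4 lymphatic and 0 to 1 of 3 mesothelial markers, and none of the 385 regions lay nearest to a gene of these marker lists. Sequencing lanes, read from a code in the list names, were partly tied to the groups: lane 6 held the 5 Aged Bleo samples with Aged Sham 4, lane 7 held Young Bleo 1 to 3 with Aged Sham 1 to 3, and lane 8 held Young Bleo 4 with the 5 Young Sham samples. Aged Sham 4 lay inside the range of Aged Bleo in the 385 regions. Without it the rule left 347 regions, and the values below include it.

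A region is called occupied in a mouse that had a kept peak in it. The rule asked for 75% of Young Bleo but only 60% of Aged Bleo samples. It allowed 20% of Young Sham but 50% of Aged Sham samples, so a wider gap in young mice was built into the counts. Kept peaks were present in 360, 353, 353 and 280 of the 385 regions in Young Bleo 1 to 4, and in 26, 29, 20, 17 and 51 in Young Sham 1 to 5. Aged Bleo 1 to 5 had 357, 343, 264, 161 and 216, and Aged Sham 1 to 4 had 63, 165, 57 and 193. The means were 336.5 ± 37.8 (SD, n = 4) for Young Bleo, 28.6 ± 13.4 (n = 5) for Young Sham, 268.2 ± 83.2 (n = 5) for Aged Bleo and 119.5 ± 69.7 (n = 4) for Aged Sham. The young groups stood far apart, and Aged Bleo 4 had fewer occupied regions than Aged Sham 2 and 4. Given the limits of the rule, nothing about age is read from this. Within lane 8, Young Bleo 4 had 280 against 17 to 51 in Young Sham. Within lane 6, Aged Bleo spanned 161 to 357 around the 193 of Aged Sham 4, and in lane 7 Young Bleo had 353 to 360 against 57 to 165 in Aged Sham.

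**Figure D1:**
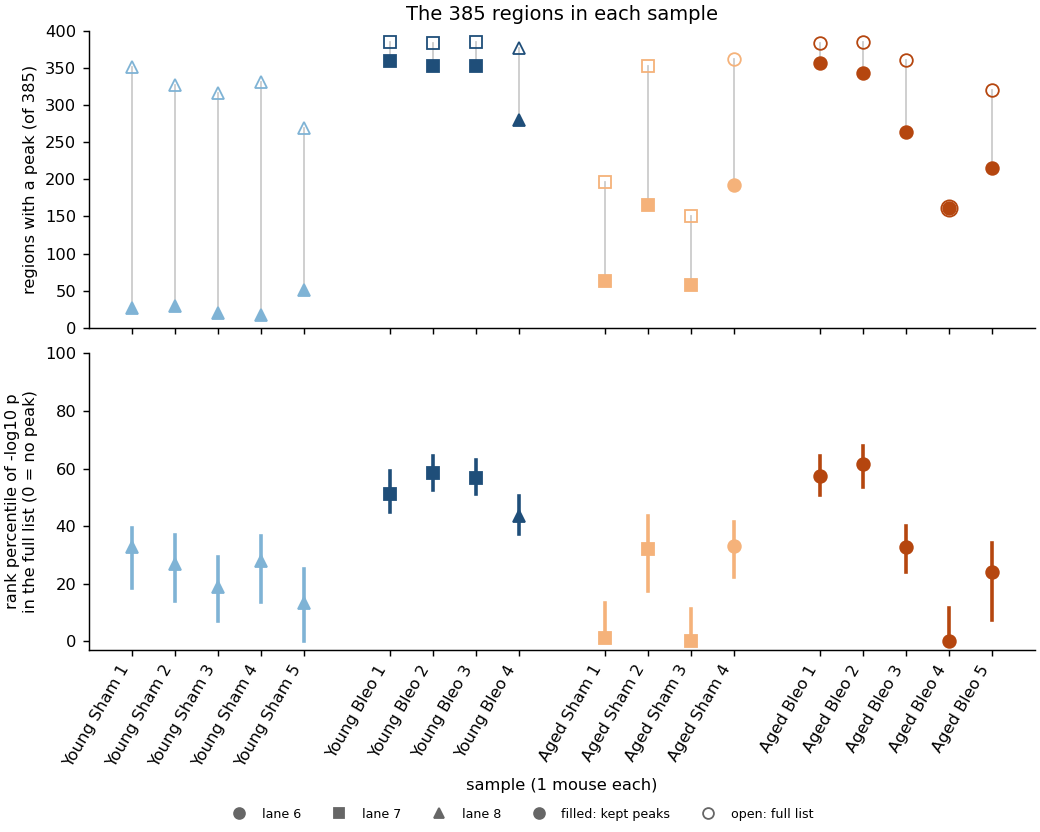
Top, number of the 385 regions with a kept peak (filled) or any peak of the full list (open) in each of the 18 mice; bottom, median and interquartile range over the regions of the rank percentile of -log10 p in the full list (0 = no peak), with point shapes for lanes. With kept peaks, Young Sham lies at 17 to 51 and Young Bleo at 280 to 360, while Aged Sham at 57 to 193 and Aged Bleo at 161 to 357 overlap.

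Most regions met the rule at a limit. Of the 385, 191 had a kept peak in all 4 Young Bleo samples and 194 in 3, and 236 had one in 3 of 5 Aged Bleo samples, 112 in 4 and 37 in all 5. No Young Sham peak was kept in 242 regions, and no Aged Sham peak in 78, with 136 holding 1 and 171 holding 2. In 118 regions, 30.6%, every Young Bleo and no Young Sham sample had a kept peak, a pattern that 1.15% of all regions showed. In 5 regions, 1.3%, every Aged Bleo and no Aged Sham sample had one, against 0.0646% of all regions. Both patterns follow from the rule and nothing is read from them. Just outside the rule by 1 sample lay 142 regions with 2 of 4 Young Bleo, 377 with 2 of 5 Aged Bleo, 136 with 2 of 5 Young Sham and 118 with 3 of 4 Aged Sham samples. Only 17 regions stayed clear of every limit, and named after their values were seen these include the ones at Notch1, Id1, Itga9, Smarca5, Snai1, Skap2, Dab2, Nrap, Cttnbp2 and Adgrg7.

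Below the kept peaks, most of the regions were already weakly accessible in young uninjured ECs. In the full lists, Young Sham 1 to 5 had some peak in 352, 328, 317, 332 and 270 of the 385, and Young Bleo 1 to 4 in 385, 384, 385 and 377. Aged Sham 1 to 4 had one in 197, 353, 150 and 363, and Aged Bleo 1 to 5 in 384, 385, 361, 161 and 321. The young groups thus differed mainly in rank. The rule kept peaks by -log10 p, so this difference follows from the choice and is given as a description. Ranked by -log10 p among all nuclear peaks of a list, with 0 for no peak, the median region stood at percentile 23.9 ± 7.83 (SD, n = 5) in Young Sham and 52.5 ± 6.76 (n = 4) in Young Bleo, with 13.1 to 32.6 and 43.5 to 58.6 as the ranges. In aged mice it stood at 16.6 ± 18.5 (n = 4) in Aged Sham and 35.2 ± 25.3 (n = 5) in Aged Bleo, where the range of 0 to 33 lay within that of 0 to 61.7.

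**Figure D2:**
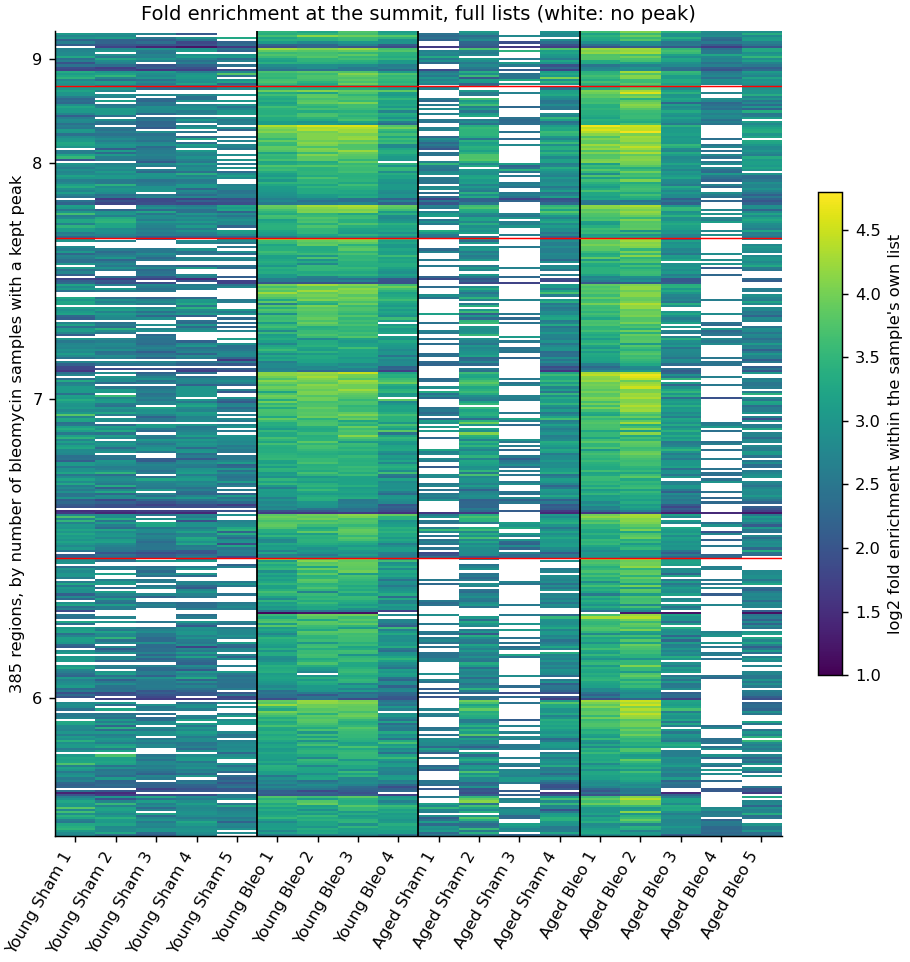
Log2 fold enrichment within each full list (color, white where no peak) of the 385 regions (rows, in blocks by the number of bleomycin samples with a kept peak) in the 18 mice (columns, by group). The Young Bleo columns and those of Aged Bleo 1 and 2 are filled in nearly every row, Young Sham 1 to 5 in 270 to 352 at lower values, and Aged Bleo 4 in 161.

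To read each mouse in regions it did not help to choose, the rule was applied to the other 17 with the same shares of samples per group as limits, and the share of those regions with a kept peak in the mouse left out was taken. In whole mice, with 1 left out of its group, these limits became 3 of 3 Young Bleo, 0 of 4 Young Sham, 3 of 4 Aged Bleo and 1 of 3 Aged Sham samples, which is stricter and leaves fewer regions. The share was 88.4%, 85.7%, 85.7% and 64.5% in Young Bleo 1 to 4 and 9.7%, 10.7%, 7.63%, 6.56% and 17.4% in Young Sham 1 to 5. The young groups did not overlap from mouse to mouse. The lowest Young Bleo share had a Wilson 95% interval of 58.9% to 69.8% and the highest Young Sham share one of 13.5% to 22.2%. Aged Bleo 1 to 5 had 83.7%, 76.9%, 52.5%, 29.1% and 42.1%, and Aged Sham 1 to 4 had 24.2%, 49.4%, 22.2% and 55.6%. Aged Bleo 3, 4 and 5 and Aged Sham 2 and 4 were interspersed. Group means were 81.1% ± 11.1 (SD, n = 4) for Young Bleo, 10.4% ± 4.24 (n = 5) for Young Sham, 56.9% ± 23.1 (n = 5) for Aged Bleo and 37.9% ± 17.1 (n = 4) for Aged Sham. These intervals cover counting error within 1 mouse only, since its regions are not independent, and do not compare groups. The other mice of the same groups chose the regions, under looser limits for the aged groups, so the shares do not compare the ages.

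In aged mice this share tended to be higher in longer lists, list length being a rough measure of signal. The aged lists with the highest shares, Aged Bleo 1 at 37595 peaks and Aged Bleo 2 at 40883, were the longest, and the shortest list, Aged Bleo 4, lay at 29.1%. Aged Sham 2 and 4, at 32220 and 31366 peaks, lay at 49.4% and 55.6%, above Aged Bleo 5 at 26886 peaks and 42.1%. Other mice did not follow this order. Aged Sham 1 and 3, at 26148 and 25793 peaks, lay at 24.2% and 22.2%, below the shorter list of Aged Bleo 4. They also lay below Aged Bleo 5, whose list was slightly longer. Aged Bleo 3, at 29049 peaks and 52.5%, lay above the longer list of Aged Sham 2. In young mice list length did not separate the groups, with 30073 to 38747 peaks in Young Sham and 33980 to 39420 in Young Bleo. The part of list length in the aged values was not tested.

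**Figure D3:**
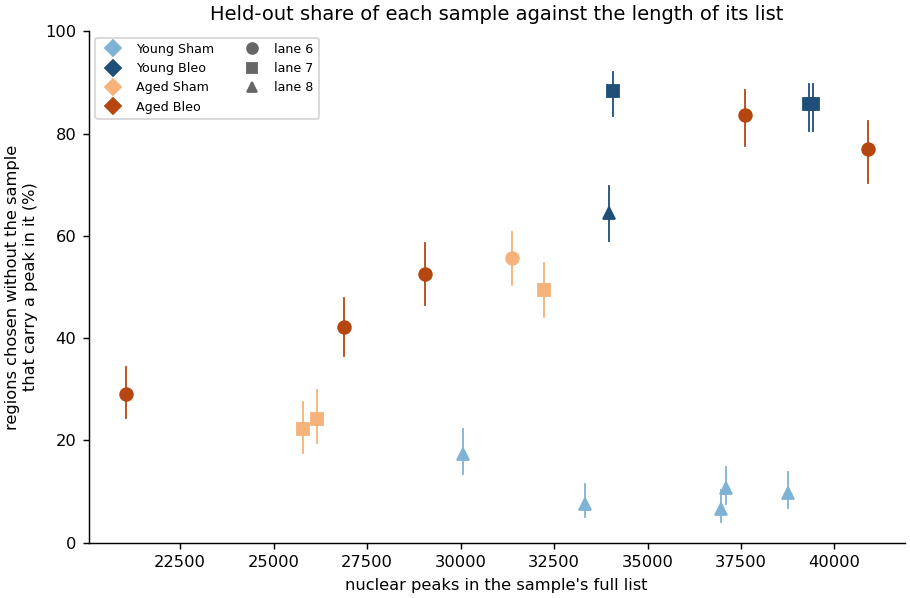
Share of regions chosen without a mouse that had a kept peak in it (percent, vertical axis) against the number of nuclear peaks in its list (horizontal axis), 1 point per mouse with its Wilson 95% interval. Young Bleo lies above Young Sham at like list lengths, and aged shares are highest in the longest lists.

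A kept peak in all 9 bleomycin and no sham sample was found in 2 regions. Values given for them and for the regions that follow are fold enrichments, read from the full lists. A fold enrichment is the fragments at a summit divided by the number expected from nearby background in that library, with 1 added to each. The first was chr9:118674838-118675129, in an intron of Itga9, which encodes an integrin subunit that binds tenascin and other matrix proteins, and 36708 bp upstream of the nearest annotated TSS of that gene. Its fold enrichment was 11.2, 9.6, 13.5 and 8.79 in Young Bleo 1 to 4, and 12.3, 16.7, 10.8, 7.29 and 7.48 in Aged Bleo 1 to 5. No Young Sham list held a peak there at any strength, and weaker peaks of 8.32 and 7.77 were listed in Aged Sham 2 and 4. The young groups thus did not overlap, while Aged Sham 2 and 4 lay within the range of Aged Bleo in fold enrichment. The second region, chr8:80753317-80753684, was intergenic, 14042 bp upstream of Smarca5, which encodes the SNF2H ATPase of nucleosome-sliding ISWI complexes. Its fold enrichment was 10.4, 11.2, 12.7 and 9.52 in Young Bleo and 8.39, 7.59, 6.47, 4.2 and no peak in Young Sham. It was 9.24, 12.2, 7.59, 6.8 and 10.3 in Aged Bleo and 5.44, 6.93, no peak and 6.95 in Aged Sham. The young groups did not overlap here either, and Aged Bleo 4 lay below Aged Sham 2 and 4.

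The highest mean percentile of fold enrichment over the bleomycin samples, 61.2, was that of chr11:18296204-18296621, an intergenic region 196853 bp from the predicted gene Gm12022. Its fold enrichment was 20.6, 24.1, 23.9 and 13.6 in Young Bleo, 26.2, 23, 10.9, no peak and 7.95 in Aged Bleo, 6.18, no peak, 5.04, 6.49 and no peak in Young Sham, and no peak, 10.2, no peak and 8.59 in Aged Sham. The rise was thus about as high in Aged Bleo 1 and 2 as in Young Bleo, and absent from the list of Aged Bleo 4.

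The region chr14:28375532-28376043, in an intron of Erc2 with Wnt5a as the gene of the nearest TSS at 129685 bp, had a fold enrichment of 17.2, 19.7, 20.5 and 15.9 in Young Bleo against 5.74, 5.79, 4.32, 8.01 and 7.19 in Young Sham. Wnt5a encodes a WNT ligand that acts mainly outside the β-catenin route and takes part in vessel remodelling. In aged mice it was 21.6, 21.7, 8.23, no peak and 9.21 after bleomycin and 6.43, 11.7, no peak and 9.81 in sham. The young samples separated, whereas Aged Bleo 3, 4 and 5 lay below Aged Sham 2 and 4 or had no peak. A second region nearest to Wnt5a, chr14:28242721-28243113 also in an intron of Erc2 and described after its values were seen, held a match to the AP-1, ERG and SOX letters alike and had 17.7, 14, 17.1 and 7.33 in Young Bleo. Young Sham had 7.51, 5.79, no peak, 5.34 and no peak there, so the range of Young Sham reached just above Young Bleo 4. The region chr2:133351105-133351872, intergenic and 200670 bp upstream of Bmp2, a ligand of the BMP branch of TGF-β signalling, had 18.9, 16.9, 18.8 and 12.6 in Young Bleo and 6.45, 6.87, 7.55, 7.63 and 5.5 in Young Sham. It had 19, 19.4, 11.4, 5.34 and 9.76 in Aged Bleo and no peak, 13.1, no peak and 13.5 in Aged Sham. The fragments at its summit numbered 127, 104, 121 and 51 in Young Bleo and 12 to 20 in Young Sham.

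The region chr15:38391361-38391879, intergenic and 90909 bp upstream of Klf10, a zinc-finger factor induced by TGF-β, was even across the Young Bleo mice. It had a fold enrichment of 14.7, 13.9, 14.8 and 13.8 in Young Bleo and of 16.5, 18.2, 12.8, 5.9 and 9.82 in Aged Bleo. Young Sham had 6.62, 7.96, 6.12, 8.39 and 4.65, and Aged Sham had 6.43, 6.47, 10.9 and 8.73. Every Young Bleo value exceeded every sham value of both ages, and so did those of Aged Bleo 1 to 3, whereas Aged Bleo 4 and 5 lay inside the sham range. The other strongest regions were nearest to Gm35554, Col22a1, Kif5b and Slc22a16, with 10.3 to 20.6 in Young Bleo and at most 9.31 in Young Sham. The aged groups overlapped at all 4, as at Col22a1, where Aged Sham 2 and 4 had 11.1 and 12.1 and Aged Bleo 3 and 5 had 8.54 and 10.3. Col22a1 encodes a collagen of tissue junctions, Kif5b a kinesin motor and Slc22a16 a carnitine transporter.

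Slc22a16 was the only gene with more than 2 of the regions. Its 4 regions lay between chr10:40476608 and chr10:40522267, 48419 to 93394 bp upstream of its TSS, with 1 of them in an intron of Cdk19 and the other 3 intergenic. The strongest of them had 14.7, 17.2, 18.7 and 14.2 in Young Bleo and 8.39, no peak, 7.55, 6.87 and 8.46 in Young Sham, and the weakest in rank had 8.54, 8.53, 8.54 and 5.04 against 4.6 to 6.51. The other 2 had 8.33, 9.98, 9.51 and 7.36 against 5.46 to 8.02, and 8.89, 11.8, 9.01 and 7.97 against 5.92 to 8.21. Young Bleo 4 thus lay inside the Young Sham range at all but the strongest of the 4. In the whole set, 371 genes were nearest, 359 of them to 1 region and 11 to 2, and 14 regions had another within 50 kb.

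**Figure D4:**
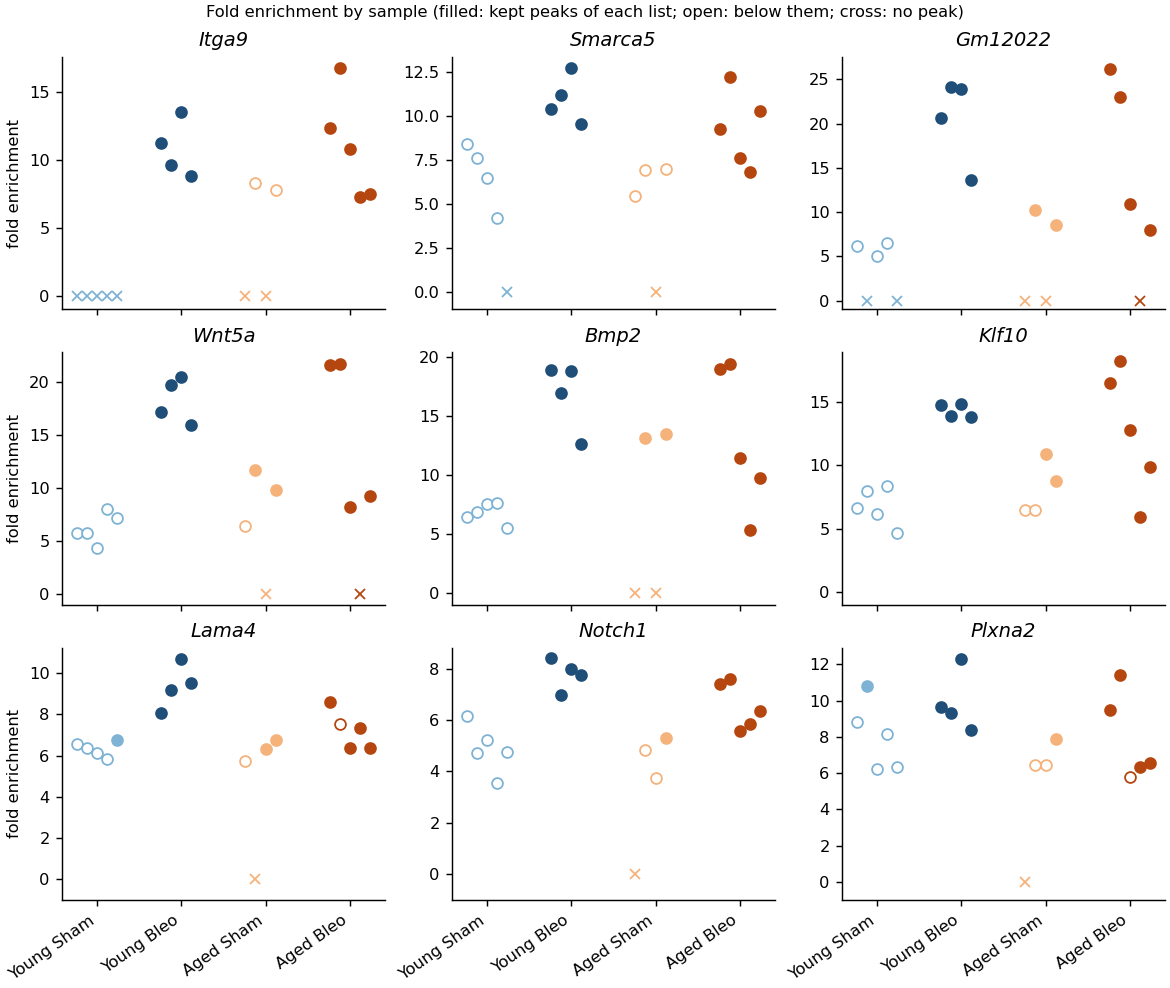
Fold enrichment (vertical axis) in each of the 18 mice for the regions at Itga9, Smarca5, Gm12022, Wnt5a, Bmp2, Klf10, Lama4, Notch1 and Plxna2, grouped by condition. Filled points are kept peaks, open points weaker peaks of the list and crosses no peak. Young Bleo lies above Young Sham at the first 6 of them, at Lama4 and at Notch1, while at Plxna2 the groups overlap.

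Regions of the set were rare at gene starts. Promoters, taken as the 1000 bp before a TSS and the 100 bp after it, held 18 of the 385, 4.68% (Wilson 95% interval 2.98% to 7.27%), against 32.1% of all regions. Introns held 176 regions, 45.7%, and intergenic DNA 175, 45.5%, against 29.8% and 30% of all regions, with 6 in exons and 10 in UTRs. Of the intronic regions, 136 lay inside the gene of the nearest TSS and 40 inside another gene, as at Wnt5a. Outside promoters the median distance to a TSS was 29423 bp, against 19113 bp for all regions, 24.8% lay within 10 kb against 35.1%, and 58 regions, 15.8% against 11.8%, lay over 100 kb away. The same distance was 24942 bp for the 454 regions that met the reversed rule, closed by bleomycin at both ages, and 38617 bp for 279 regions opened in Young Bleo but occupied in at most 1 Aged Bleo sample. Promoters were few in those sets as well, at 7.93% of the closed and 6.45% of the young-only regions, the latter inside the interval above. The nearest gene is therefore only a name for many of these regions, and no expression data were used here.

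The 18 promoter regions lay nearest to genes of varied roles, 4 of them predicted genes. Of these, the region nearest to Gm30431 lay 893 bp downstream of that TSS, outside the promoter window of that gene. The strongest promoters in fold enrichment were those of Ssu2, Gm7931, Nxph3, LOC105245613, Cbx5 and Rin1. At Ssu2 (chr6:112387907-112388481, 171 bp upstream of the TSS) Young Bleo had 14.2, 15.8, 17.4 and 14.9, against 5.64 to 7.41 in Young Sham, 5.74 to 19.5 in the Aged Bleo lists with a peak and 5.94 to 10.2 in the Aged Sham ones. At Cbx5, which encodes the heterochromatin protein HP1α, Young Sham 1 had 14, above the 8.95 to 11.6 of Young Bleo, so its fold enrichments overlapped. The LOC105245613 promoter (chr13:101540397-101540905) had no peak in any Young Sham list at any strength and 12.7, 9.62, 14.1 and 6.59 in Young Bleo, with 12.7, 16.1, 7.49, no peak and 4.67 in Aged Bleo and 5.08 and 7.69 in Aged Sham 2 and 4. At Rin1, which encodes a RAS effector and RAB5 exchange factor, Young Bleo had 8.44, 12.6, 9.18 and 10.1 and Young Sham 3.43 to 6.87, while Aged Sham 2 and 4 with 7.74 and 9.51 lay above Aged Bleo 3, 4 and 5 with 6.41, 5.74 and 4.38. Others, named after their values were seen, were the promoters of Trpv4, a stretch-sensitive calcium channel that regulates endothelial permeability, Tgif1, a repressor of SMAD-driven transcription, Cflar, an inhibitor of caspase 8, and Gapdh, a glycolytic enzyme. At Trpv4 (chr5:114658241-114658636) Young Bleo had 7.08, 11.5, 11.5 and 9.77, and of Young Sham the first 2 mice had 4.86 and 8.68 and the others no peak. Aged Bleo had 8.78, 12.3, 6.61, no peak and 7.01 there and Aged Sham no peak, 6.01, no peak and 6.14. At Tgif1 (chr17:70850993-70851367) Young Bleo had 6.09, 5.68, 5.24 and 4.2 against 2.77 to 3.47 in the 4 Young Sham lists with a peak, with no overlap. In aged mice it had 7.3, 6.6, 4.08, no peak and 5.02 after bleomycin and 3.64, 4.1, no peak and 3.81 in sham, which overlapped.

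Lists of pathway genes were taken up in the same way, each counted over the regions nearest to its genes against 1.38% of all regions. TGF-β and BMP signalling had 2 of 90 regions in the set, at the ligand Bmp2 and at Id1, a transcriptional inhibitor and direct BMP target. The Id1 region, chr2:152739115-152739658, lies 3136 bp downstream of the TSS and had a kept peak in all 9 bleomycin samples and 1 Aged Sham sample. It was strong in fragments, with 65, 98, 85 and 65 in Young Bleo. The 4 Young Sham lists with a peak had 36 to 66, which overlapped. Its fold enrichment was modest, with 3.86, 4.63, 4.02 and 3.65 in Young Bleo against no peak, 3.41, 2.64, 2.31 and 3.11 in Young Sham. The aged groups overlapped, at 3.79, 4.21, 4.08, 3.19 and 4.05 in Aged Bleo and 3.15, 3.98, 3.05 and 3.25 in Aged Sham.

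Basement membrane and matrix had 3 of 76, at Col4a2, Lama4 and Sparcl1. Col4a2 encodes a chain of collagen IV, and its region (chr8:11308483-11309019, in an intron of the neighbouring Col4a1) had 11.1, 11.2, 9.46 and 7.65 in Young Bleo against 5.81 to 6.8 in the 4 Young Sham lists with a peak. In aged mice it had 10.8, 10.1, 6.78, no peak and 7.45 after bleomycin and 5.59, 8.83, 5.85 and 7.47 in sham, which overlapped. Lama4 encodes the laminin α4 chain of vascular basement membranes, and the region at its promoter (chr10:38965159-38965743, 64 bp upstream of the TSS) had 8.09, 9.17, 10.7 and 9.52 in Young Bleo. Young Sham had 6.55, 6.39, 6.11, 5.82 and 6.77 there, all below Young Bleo, while Aged Bleo had 8.61, 7.53, 6.38, 7.32 and 6.37 and Aged Sham 5.75, no peak, 6.33 and 6.78. At Sparcl1, which encodes a secreted matrix protein of the SPARC family, the groups overlapped, with 6.84, 6.44, 5.15 and 3.76 in Young Bleo and 4.43 to 5.53 in Young Sham, so that Young Bleo 4 lay below every Young Sham mouse.

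Guidance receptors and ligands had 5 of 113, the highest share of the lists at 4.42%. These were Efnb2, the ephrin ligand of arterial ECs, and the plexins Plxna1, Plxna2, Plxnb2 and Plxnd1, receptors of semaphorins that steer migrating cells and sprouts. At the intergenic region 253649 bp from the Efnb2 TSS (chr8:8407321-8407865) Young Bleo had 11.9, 15.6, 14.7 and 8.06, Young Sham 5.76 to 7.63 with 1 list lacking a peak, Aged Bleo 17, 16.8, 9.49, no peak and 5.14 and Aged Sham 11.1 and 9.82 with 2 lists lacking one. The intronic Plxna1 region (chr6:89348489-89348857), described after its values were seen, had 6.28, 7.29, 5.88 and 6.5 in Young Bleo, 3.26 to 4.34 in Young Sham, and kept peaks in 5 of 5 Aged Bleo samples at 4.42 to 7.7 and in 2 of 4 Aged Sham samples at 5.87 and 4.93. At Plxna2 the groups overlapped in fold enrichment, since Young Sham 2 had 10.8 and Young Bleo 8.36 to 12.3. At Plxnb2 they did as well, with 4.44 to 8.39 against 6.73 to 9.6.

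Integrins, cytoskeleton and migration had 3 of 136, at Itga9, Palld and Tns1. Palld encodes palladin, an actin scaffold, and its intronic region (chr8:61832027-61832466) had a kept peak in all 9 bleomycin samples, at 10.9 to 12.5 in Young Bleo and 5.83 to 19.5 in Aged Bleo, with 7.07 and 5.76 in the 2 Young Sham lists that had a peak. Aged Sham had kept peaks there in 2 of 4 samples and values of 6.93, 6.01, no peak and 9.45, inside the range of Aged Bleo. Tns1 encodes tensin 1, which links integrins to actin, and its intronic region had 7.85 to 10.9 in Young Bleo and 4.42 to 6.95 in Young Sham, and in aged mice 5.99 to 12.8 after bleomycin and 5.01 to 7.77 in sham, which overlapped. Notch signalling had 1 of 44, in an intron of the receptor gene Notch1 (chr2:26490683-26491363), with 8.39, 6.98, 8 and 7.75 in Young Bleo and 3.55 to 6.15 in Young Sham. Aged Bleo had 7.39, 7.59, 5.59, 5.84 and 6.33 there and Aged Sham no peak, 4.82, 3.76 and 5.28, so at Notch1 the groups were apart at both ages.

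VEGF, angiopoietin and apelin signalling had 1 of 81, in an intron of Angpt1, the agonist ligand of the receptor TIE2. It had 8.41 to 10.8 in Young Bleo and 3.98 to 7.62 in Young Sham, and the groups overlapped in aged mice, where Aged Bleo 1 to 3 had 14.6, 20.9 and 9.07 and Aged Sham 2 and 4 had 14.8 and 12.7. Aerocyte markers had 2 of 56, at Chst1 and Pmp22, and large vessel markers 1 of 61, at Efnb2. At Chst1, a sulfotransferase gene, Young Sham 2 with 11.6 lay above Young Bleo 1, 3 and 4, and at Pmp22 Young Bleo 4 with 7.33 lay inside the 5.5 to 7.63 of Young Sham. None of the regions was nearest to a gene of the lists of AP-1 and stress transcription factors (44 regions), endothelial transcription factors (134), general capillary markers (72), leukocyte adhesion and NF-kB (55), cell cycle and p53 (67) or lipid uptake and PPAR (42). With 42 to 136 regions in a list, a share of 1.38% comes to few regions, so these small counts neither set a list apart nor bring it down to the background.

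Further regions were picked after their values were seen because their genes are known in vascular repair and fibrosis. The region 22634 bp upstream of Pdgfb, which ECs secrete to recruit pericytes (chr15:80037301-80037921), had 13.3, 16.4, 14.6 and 8.06 in Young Bleo and 5.3, no peak, 5.4, 8.01 and no peak in Young Sham. In aged mice it had 14, 19.1, 8.03, no peak and 10.7 after bleomycin and 5.44, 10.1, no peak and 11.4 in sham, which overlapped. Caveolae, the membrane pits that are abundant in lung ECs, are built from caveolin 1 and cavin 1, and a region lay near the gene of each. The Cavin1 region (chr11:100979880-100980279) had 11.3, 13.3, 13.1 and 8.06 in Young Bleo and 5.96 to 8.4 in Young Sham, with Young Bleo 4 inside that range. The Cav1 region (chr6:17353778-17354253) had 8.95, 8.01, 11.2 and 12.1 in Young Bleo and 6.62, 6.51, 6.12 and 2 lists without a peak in Young Sham. Both had kept peaks in 4 of 5 Aged Bleo samples, and in Aged Sham in 2 at Cavin1 and none at Cav1. In the full lists Cav1 had 10.4, 17.2, 8.54, no peak and 7.01 in Aged Bleo, and no peak, 6.01, no peak and 6.55 in Aged Sham. At Cavin1 Aged Sham 2 and 4 with 11.6 and 11.2 lay above Aged Bleo 3 and 5 with 8.07 and 8.88. The region near Mir21a, the gene of miR-21, a microRNA raised in fibrosis (chr11:86577184-86577631), had 8.07, 10.9, 11.1 and 8.1 in Young Bleo and 5.38 to 6.15 in the 4 Young Sham lists with a peak. Its values overlapped in aged mice, at 4.58 to 16.7 in Aged Bleo and 5.63 to 8.2 in the 3 Aged Sham lists with a peak.

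Adrenomedullin is a peptide that dilates vessels and tightens their barrier, and regions of the set lay nearest to its gene Adm and to its receptor gene Calcrl. The Adm region had 9.69, 13.2, 10.5 and 8.43 in Young Bleo against 6.77 to 11.2 in Young Sham, which overlapped. The Calcrl region, 195368 bp from its TSS, had 12.9, 11.6, 11.6 and 6.59 in Young Bleo against 7.07, 4.7 and 5.72 in the 3 Young Sham lists with a peak, with Young Bleo 4 inside that range. The aged groups overlapped at both. Among factors of endothelial-to-mesenchymal transition, the region 36837 bp downstream of the Snai1 TSS (chr2:167574840-167575224) had 11.4, 13.2, 10.8 and 9.4 in Young Bleo, 4.42 and 5.42 in Young Sham 1 and 2, and no peak in the other 3. It had 9.9, 12.1, 7.54, 7.12 and 6.02 in Aged Bleo and 9.71 and 6.42 in Aged Sham 2 and 4. The Snai2 region (chr16:14701401-14701689) had 4.18 to 5.8 in Young Bleo and 3.93 to 5.47 in Young Sham, which overlapped, and no peak in any Aged Sham list. At Nog, which encodes the BMP antagonist noggin, at Lif, Fgfr1, Adam12 and Tbxa2r the young groups overlapped in fold enrichment as well.

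Sequence was not used by the rule. In 200 bp around the strongest summit, the AP-1 letters TGANTCA were present in 78 of the 385 regions, 20.3% (Wilson 95% interval 16.5% to 24.6%), against 8% of all regions and 10.5% of all regions outside promoters. The SOX letters CCATTGT were present in 62, 16.1% (12.8% to 20.1%), against 5.32% and 7.21%, but in 9.86% of the 416 regions that the rule gave with all nuclear peaks in place of the kept ones. Both shares were lower in the 454 regions closed at both ages, at 5.29% for AP-1 and 3.74% for SOX. In the 279 regions opened in Young Bleo but not in Aged Bleo, AP-1 was found in 10% and SOX in 14.7%. The ERG core CAGGAAG was present in 100 regions, 26% (21.8% to 30.6%), against 19.3% of all regions, 23.8% of all outside promoters, 26.4% of the closed set and 22.9% of the young-only set, all but the first inside its interval.

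Any of the 3 motifs was found in 192 regions, 49.9%, against 28.7% of all regions and 36.1% of those outside promoters. AP-1 and ERG occurred together in 25 regions, 6.49% against 2.08% of all regions and 2.86% of those outside promoters. In the same order, AP-1 and SOX did in 10, 2.6% against 0.571% and 0.82%, and ERG and SOX in 17, 4.42% against 1.39% and 1.95%. The single shares of AP-1 and SOX were raised too, and whether the pairs exceed what the single shares give was not tested. The match nearest to the summit lay at a median of 37.5 bp for AP-1, 34 bp for ERG and 43.5 bp for SOX, against 41.5, 37.5 and 40.5 bp over all regions with a match. It lay within 50 bp in 64.1%, 70% and 59.7% of them, close to the 59.2%, 63.5% and 59.5% of all regions. The share with AP-1 was 18.9% in the 53 regions without a kept sham peak, 24.5% in the 106 with 1 and 18.6% in the 226 with 2 or 3, which shows no order. In the same order the share with the ERG core was 34%, 24.5% and 24.8%, and that with SOX 17%, 17% and 15.5%. In regions with 6, 7 and 8 or 9 bleomycin samples, the shares were 21.8%, 17% and 23.2% for AP-1, 27.8%, 28.8% and 19.2% for ERG and 16.5%, 15.7% and 16.2% for SOX.

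**Figure D5:**
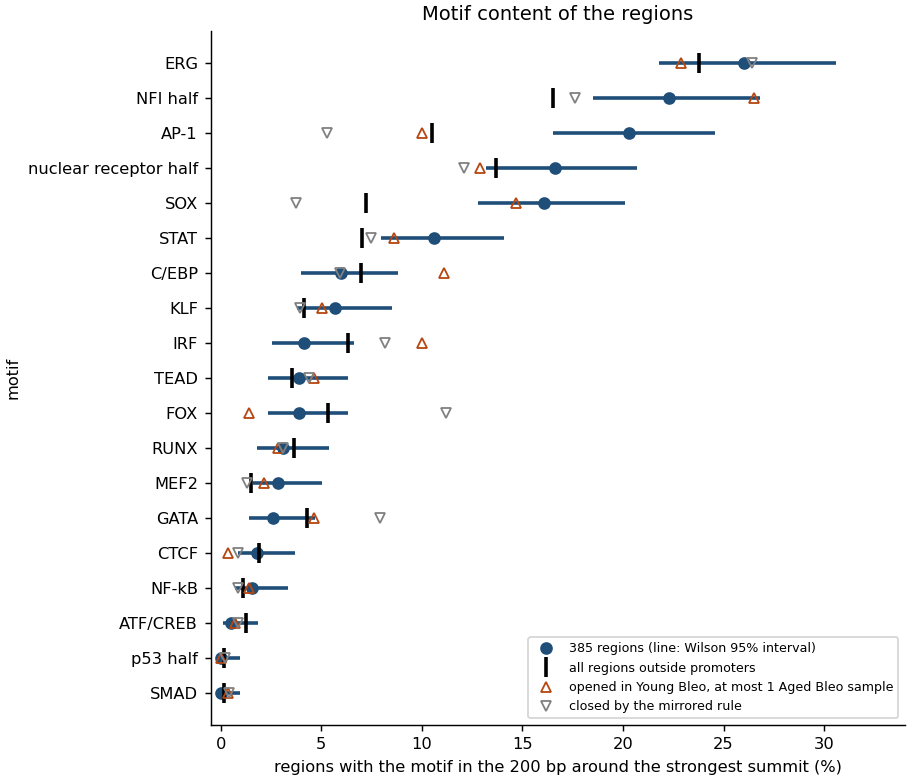
Share of regions (percent, horizontal axis) whose central 200 bp hold each motif, for the 385 regions (circles with Wilson 95% intervals), all regions outside promoters (bars), regions opened in Young Bleo with at most 1 Aged Bleo sample and regions closed under the mirrored rule (triangles). AP-1 at 20.3% lies above all 3 comparison sets, and SOX at 16.1% above the first and the last with 14.7% in the second inside its interval.

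Of the other 16 motifs searched on both strands, the STAT letters TTCNNNGAA were found in 10.6% of the regions (7.95% to 14.1%) against 5.99% of all regions and 7.01% outside promoters. The young-only set had 8.6%, inside that interval, and the closed set 7.49%. The NFI site TTGGCA was found in 22.3% against 13.4% and 16.5%, and in 26.5% of the young-only set. The nuclear receptor site AGGTCA was found in 16.6% (13.2% to 20.7%) against 11.3% of all regions and 13.7% outside promoters, the latter inside the interval, and the MEF2 letters TATTTNTAG in 2.86% against 1.18% and 1.53%. The FOX letters TGTTTAC (3.9% against 4.12%), GATA letters AGATAAG (2.6% against 3.15%), TEAD letters CATTCCA (3.9% against 2.85%), RUNX letters TGTGGTT (3.12% against 2.99%) and CTCF letters AGGGGGCGC (1.82% against 2.07%) had intervals that held the share of all regions. So did the NF-kB letters GGGANTTTC (1.56% against 1.01%), IRF letters GAAANNGAA (4.16% against 5.48%) and C/EBP letters TTGCNNAA (5.97% against 6.02%). The KLF letters CCACACCC were found in 5.71% (3.8% to 8.5%), against 3.74% of all regions and 4.13% outside promoters. The FOX and GATA letters were more frequent in the regions closed at both ages, at 11.2% and 7.93%. The ATF/CREB letters TGACGTCA were found in 2 regions, 0.519% (0.143% to 1.87%), against 1.99% of all regions and 1.24% outside promoters, the latter inside the interval. The SMAD letters GTCTAGAC and the p53 letters GACATGTC in none of 385, which by the Wilson interval allows a share of up to 0.988%, above the 0.169% and 0.126% of all regions. Matches to different motifs may overlap. The regions had a mean GC content of 51.3% ± 7.42 (SD over 385 regions), against 57.7% for all regions and 53.8% for those outside promoters, and a median width of 463 bp against 561 bp. The part of GC content and width in the motif shares was not tested.

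The ages were compared with each other after bleomycin. The rule did not set these groups against each other, but it used the kept peaks of both and asked for 75% of Young Bleo and 60% of Aged Bleo samples, so lower values in Aged Bleo follow in part from the choice. Within-list percentiles of fold enrichment (0 where no kept peak) were compared with limma over all 27849 regions with Benjamini-Hochberg adjustment. Of the 385 regions, 3 passed an adjusted p of 0.05, 0.779% against 0.542% of all regions, each of them lower in Aged Bleo, the direction that the choice favours. At an unadjusted p of 0.05 there were 50 regions, 13% against 14.7% of all. Since the test ran on kept peaks that the rule had used, nothing is read from these shares.

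The 3 regions are named here after their values were seen, and since the rule used the same kept peaks their differences are given as a description, without a p. At chr4:115731535-115732012, intergenic and 5996 bp upstream of Efcab14, the fold enrichment was 10.4, 14.7, 14.7 and 11 in Young Bleo and 9.24, 9.36, 8.07, 3.89 and 5.61 in Aged Bleo. Every Young Bleo mouse lay above every Aged Bleo mouse, and the mean percentile was 40.6 against 6.03, a difference of -34.6 ± 5.76 (SE). At chr1:153730654-153731182, in an intron of C230024C17Rik, Young Bleo had 12.7, 17.6, 15.4 and 13.9 and Aged Bleo 11, 15.3, 7.59, 7.29 and 7.01, with mean percentiles of 54.1 and 25.8, a difference of -28.3 ± 5.58. At chr13:112196756-112197198, 91474 bp upstream of Ankrd55, Young Bleo had 11.9, 12, 12.4 and 9.52 and Aged Bleo 10.5, 10.6, 6.17, 5.34 and 5.61, with mean percentiles of 32 and 9.31, a difference of -22.7 ± 4.65. The groups overlapped in fold enrichment through Aged Bleo 2 at the second of these regions and through Aged Bleo 1 and 2 at the third. None of the 385 regions was called with log2 fold enrichment, with full-list percentiles or with same-numbered samples as a replicate block, and 1 to 9 were called when 1 sample was left out.

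Without injury, 0 of the 385 regions were called between Aged Sham and Young Sham by limma and 2 had an unadjusted p under 0.05, against 1.3% and 14.3% of all regions. The rule capped the kept peaks of both sham groups, at 20% of Young Sham and 50% of Aged Sham samples, and regions without one count as 0, so a low count was fixed by the choice and nothing is read from it. A response to bleomycin that differed between the ages was called by limma's interaction term in 0 of the regions and in 0.144% of all, and 44 regions, 11.4% against 9.08% of all, had an unadjusted p under 0.05. The limits of the rule, 75% of Young Bleo with 20% of Young Sham samples but 60% of Aged Bleo with 50% of Aged Sham samples, build a smaller aged response into the regions, so nothing is read from this contrast either. The sequencing lane is partly tied to age and treatment. No fit with lane was run, so the part of lane in these contrasts was not tested.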

How the data were processed

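The files were 18 ATAC-seq peak lists, 1 per mouse. In the methods of the study, the authors aligned reads against mm10 (BWA, HiChIP pipeline), discarded duplicates (Picard MarkDuplicates) and called peaks per sample (MACS2, FDR of 1%). No control library or Tn5 shift was named in the sources used here. The deposited fold enrichment is MACS2's ratio of summit fragments to local background, with 1 added to each. Deposited p and q values are on a -log10 scale and come from the authors' MACS2 test of each library. The deposited score, the authors' rescaled -log10 q, was not used. None of these is scaled between libraries, and the authors' DiffBind analysis of reads was not repeated because lists hold no counts.

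Ties at the last kept peak of a list were broken by fold enrichment, then by order, and 19 mitochondrial peaks were left out. Regions were annotated by midpoint with 45756 RefSeq NM and NR transcripts of GRCm38.p6, promoter before exon, UTR, intron and intergenic. Fragments were solved from fold and -log10 p and were whole, within 0.05, for at least 99.99% of peaks. Depth is known only through them, and the lists give no read totals. The age contrasts used limma 3.58.1 in R 4.3.3 on 4 group means over all 18 samples, with an adjusted p of 0.05 as the threshold. Code was tested on simulated data.

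Groups came from the labels. Named regions were those in all 9 bleomycin and no sham samples, the 8 others with the highest mean percentile of fold enrichment over bleomycin samples, up to 6 promoters, up to 3 per gene list and genes with 3 or more regions, and others are marked in the text. The members and lists were chosen with earlier results of these data known. Alternatives were all peaks, ranking by fold enrichment, 50% overlap, 500 bp windows, regions in at least 3 samples, autosomes, a stricter sham limit, a wider promoter, whole-region motif search, log2 fold enrichment, full-list percentiles, a replicate block and each sample left out.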

Additional observations from a re-analysis of the deposited data

Results flagged for a closer look

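The counts in 2 mice stood apart from the rest of their group by more than Dixon's 95% limit, which chance passes in about 1 of 20 groups. Young Bleo 4 had a kept peak in 280 of the 385 regions and any peak in 377, below the other 3 Young Bleo mice, and a kept peak in 64.5% of the regions chosen without it. It is also the only Young Bleo mouse of lane 8. Aged Bleo 4 had any peak in 161 of the regions, below the other 4 Aged Bleo mice, and its list was the shortest.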

How the results depend on the processing

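Over 172 alternative values, all of them counts or shares without a direction, 147 stayed within their limits of change and 25 moved. Many of the unmoved values were limma counts of 0 that stayed at 0 in contrasts from which nothing is read. A like number of regions can also hold other regions, so the tally does not measure how firm the results are. Membership depended strongly on keeping equal numbers of peaks: with all nuclear peaks the rule gave 416 regions but only 19 of the 385 (4.94%) overlapped one, and ranking by fold enrichment gave 351, overlapping 184 (47.8%). A limit of 1 in place of 2 Aged Sham samples left 214, and leaving out 1 sample, which also tightens the limit of its group, gave 172 to 347, namely 216, 223 and 223 without Young Bleo 1, 2 and 3 and 172, 182 and 255 without Aged Bleo 1, 2 and 3. A promoter of 2000 bp on either side held 9.61% of the regions (43.3% of all), and without 1 sample the share was 3.89% to 5.46%. Searching the whole region, AP-1 was in 29.4% (16% of all), the ERG core in 39% (33.6%) and SOX in 21.6% (9.58%). Without 1 sample these shares were 17% to 24.6%, 19.2% to 29% and 13.2% to 19.3%, and SOX fell to 9.86% with all nuclear peaks. The SOX alternatives, the shares under ranking by fold enrichment and the samples left out for shares were chosen after seeing the data.

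After bleomycin, the 3 regions called between ages became 0 with log2 fold enrichment and 0 with full-list percentiles. Leaving out 1 sample gave 1 to 9, with 6 and 9 without Aged Bleo 1 and 2. The count was 1 without Young Bleo 2, Aged Bleo 3 or Aged Bleo 5. Without Aged Bleo 4, 3 were called, 1 higher and 2 lower in Aged Bleo. Over all regions the counts without Aged Bleo 1 and 2 were 286 and 260. In sham mice, full-list percentiles called 3 (1033 of all regions), each lower in Aged Sham, and leaving out 1 sample 0 to 0. In the main limma fit, the 2 regions with an unadjusted p under 0.05 were higher in Aged Sham. For the differing response, leaving out 1 sample gave 0 to 1, the 1 without Aged Bleo 1. With same-numbered samples as a replicate block, 0 regions were called in each contrast. The 25 same-numbered pairs had correlations of -0.196 to 0.318 with 4 over 0.1, and 5 of 18 samples correlated best with their own number. These values gave no clear sign of pairing by number, and whether same-numbered mice were handled together is not known. The median summit rested on 25 to 33 fragments, and how depth bears on missing peaks was not tested.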
